A study of Mus musculus with 18 samples.

Results

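Slc28a2b, Slc6a19, Kcna2, Dapl1, Cpm and Lcn4 are genes whose RNA was high in resting CD8+ T cells and lower in memory cells labelled cKO for Hspa9 than in WT memory cells. They are 6 of the 27830 genes listed in at least 1 of the 3 deposited tables, and were chosen by name, from earlier results of the same data, as transporters, a channel and other genes low in WT effector cells and low in cKO memory cells. No numerical threshold came with that choice. The values that chose them, those of WT effector and of cKO memory cells, are therefore given below as a description with no p-value, and tests are kept to contrasts that the choice did not name, except that the test between genotypes in effector cells, and the interaction between effector and naive cells, share the WT effector libraries with the choice. The chosen pattern held in full for only part of the group: Slc28a2b, Slc6a19, Kcna2 and Dapl1 were close to 0 in effector cells, whereas Lcn4 and Cpm were lower there but kept an appreciable level.

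Naive and memory T cells are quiescent cells that recirculate and survive on cytokine signals, joined in naive cells by self-antigen signals. On activation they become effector cells, which divide, switch their metabolism and shut down many of the genes of the resting state, part of which come back when memory cells form. Membrane transporters and potassium channels belong to this change, since they set the supply of nucleosides and amino acids and the membrane potential that drives calcium entry. Slc28a2b is a close relative of the sodium-coupled purine nucleoside transporter Slc28a2. Slc6a19 encodes a sodium-coupled transporter of neutral amino acids best known from gut and kidney. Kcna2 encodes the voltage-gated potassium channel Kv1.2, best known from neurons. Cpm encodes carboxypeptidase M, a membrane-anchored enzyme that removes basic residues from the ends of peptides. Lcn4 belongs to the lipocalins, small secreted carriers of hydrophobic molecules. Dapl1 encodes a small protein related to the death-associated protein Dap, and its RNA is often used as a marker of naive-like CD8+ T cells.

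In the coordinates of the deposited tables (GRCm39), Dapl1 (ENSMUSG00000026989), Lcn4 (ENSMUSG00000026919) and Slc28a2b (ENSMUSG00000079071) are on mouse chromosome 2, at 59314997 to 59335364 on the + strand, 26557686 to 26561294 on the - strand and 122315422 to 122358521 on the + strand. Kcna2 (ENSMUSG00000040724) lies on chromosome 3 at 107008462 to 107022321 (+), Cpm (ENSMUSG00000020183) on chromosome 10 at 117465405 to 117523257 (+), and Slc6a19 (ENSMUSG00000021565) on chromosome 13 at 73827864 to 73852984 (-). The genes on chromosome 2 lie far apart.

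The data are poly-A RNA profiles of mouse CD8+ T cells. The mice were 8 weeks old and were either cKO, carrying a conditional knockout of Hspa9, the gene of the mitochondrial chaperone GRP75, or WT. Naive cells were taken from spleen and lymph nodes. The other subsets were derived from naive cells in culture without further treatment named in the labels, so memory cells here are cells differentiated in vitro. The 6 groups, cKO naive, WT naive, cKO effector, WT effector, cKO memory and WT memory, had 3 libraries each, 18 in all. The labels do not name the Cre driver or the strain, and do not say whether replicates were separate mice, so that every p-value measures the spread between these libraries only, which may be technical. In bulk RNA of this kind, fewer cells of a type and less RNA per cell cannot be told apart.

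Total reads recovered from the tables lay between 14771251 and 18049774 per library. Hspa9 was higher in the libraries labelled cKO than in WT libraries, with a log2 difference of 0.69 in naive cells (adjusted p = 1.3e-05), 0.16 in effector cells (adjusted p = 0.0335) and 0.48 in memory cells (adjusted p = 3.4e-04, limma, Benjamini-Hochberg). A count over the whole gene does not show whether the deleted exons are in the RNA, and cKO below means the libraries labelled cKO. All 9 genes of the CD8 T cell marker list were detected in every group. The list holds Cd8a and Cd8b1 beside CD3 and T cell receptor genes that other T cells share, so it is not specific to CD8+ cells. Its summed level was 5220 to 5289 RPM (reads per 1000000 recovered reads) in cKO naive against 5741 to 6008 in WT naive libraries. Of the 9 genes, 6 were called lower and 0 higher in cKO naive cells. In naive cells the genotypes also differed in sex-linked RNA. Xist had 4109 to 4627 normalised reads in cKO naive against 14706 to 17632 in WT naive libraries, and the Y-linked gene Ddx3y had 2771 to 3056 in cKO naive against 0 in WT naive libraries. In effector cells Xist had 12387 to 12848 normalised reads in cKO against 13696 to 14930 in WT libraries, and in memory cells 10152 to 17168 in cKO against 13420 to 17598 in WT libraries. Genotype and sex of the source animals therefore cannot be told apart in the naive comparison. Ddx3y was listed only for naive cells, so the cKO effector and memory libraries also differed from the cKO naive libraries in sex-linked RNA. Comparisons between cKO subsets carry this difference.

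The promoters of the members were compared for motifs of factors known from T cells. All 6 genes matched the RefSeq promoter table of build GRCm38.p6, which gives 250 bases before and 50 bases after each start site. The windows of Slc28a2b and Dapl1 are shown, in transcript orientation, because these genes had the largest naive differences below and because each holds the only match among the 6 genes to a motif of factors typical of resting T cells. In Slc28a2b, at chr2:122484691-122484990 on the + strand, the capitals mark the TCF/LEF motif CTTTGAT, read on the opposite strand, whose first base lies at -208 from the start site. In Dapl1, at chr2:59484403-59484702 on the + strand, the capitals mark the FOXO motif GTAAACA at -164.
Slc28a2b: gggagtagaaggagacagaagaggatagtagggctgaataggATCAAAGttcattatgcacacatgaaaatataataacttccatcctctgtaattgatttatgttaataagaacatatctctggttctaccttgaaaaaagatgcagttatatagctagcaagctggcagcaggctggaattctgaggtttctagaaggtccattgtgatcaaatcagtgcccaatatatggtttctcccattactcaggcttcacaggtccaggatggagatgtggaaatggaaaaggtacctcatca
Dapl1: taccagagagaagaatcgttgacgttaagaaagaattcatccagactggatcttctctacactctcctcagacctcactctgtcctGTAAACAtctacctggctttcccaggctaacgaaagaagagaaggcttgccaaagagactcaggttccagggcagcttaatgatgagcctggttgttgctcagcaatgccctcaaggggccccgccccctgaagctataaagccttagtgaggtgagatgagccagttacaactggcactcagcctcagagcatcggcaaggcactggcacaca

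A motif was searched as its exact letters on both strands, and each match is a description and not a site. TCF/LEF (CTTTGAT) was found in 1 of the 6 members and in 3.73% of the 32817 promoters of the table, and FOXO (GTAAACA) in 1 member and in 3.65% of promoters. KLF (CACCC) was found in 3 members, Lcn4, Kcna2 and Cpm, against 57.5% of promoters. ETS (GGAAGT) and NFAT (TGGAAA) matched Slc28a2b only among the members, against 23.8% and 21.4% of promoters, and the letters of the core promoter box, TATAAA, matched Dapl1 only, at -29, against 13.6%. RUNX (TGTGGT), AP-1 (TGANTCA) and E-box (CACGTG) matched no member, against 16.8%, 7.81% and 7.15% of promoters. Base composition differed widely among the members, with 40.0% G and C in Slc28a2b, 48.0% in Lcn4, 51.0% in Dapl1, 57.3% in Slc6a19, 66.7% in Kcna2 and 73.7% in Cpm, beside a median of 52.7% over the table. No motif searched was thus common to all 6 genes.

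The levels across the 6 groups are given as RPM from recovered reads, since normalised values were scaled within each subset. Slc28a2b was high in both resting WT groups. It averaged 33.0 ± 0.939 in cKO memory and 217 ± 12.9 in WT memory cells, 68.2 ± 0.933 in cKO naive and 202 ± 7.67 in WT naive cells, and 0.934 ± 0.632 in cKO effector and 3.49 ± 0.469 in WT effector cells (SD, n = 3 each). The WT memory and WT naive libraries overlapped, and every other pair of neighbours in this order was separate.

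Slc6a19 was highest in WT naive cells. It averaged 23.5 ± 1.27 RPM in cKO naive and 56.0 ± 1.96 in WT naive cells, 7.44 ± 0.379 in cKO memory and 35.5 ± 1.15 in WT memory cells, and 0.227 ± 0.104 in cKO effector and 0.598 ± 0.212 in WT effector cells. No neighbouring groups overlapped, although the effector values rested on 2, 4 and 5 reads in cKO against 6, 10 and 12 reads in WT libraries. Kcna2 was the member whose naive groups lay closest, with 63.8 ± 0.772 in cKO naive and 80.2 ± 7.05 in WT naive cells. It averaged 18.4 ± 3.37 in cKO memory and 49.1 ± 6.14 in WT memory cells, so that its cKO naive level was above its WT memory level. Its effector groups overlapped, at 0.522 ± 0.288 in cKO and 0.760 ± 0.153 in WT cells.

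Dapl1 and Lcn4 were highest in WT memory cells. Dapl1 averaged 19.3 ± 3.77 RPM in cKO memory and 96.2 ± 5.02 in WT memory cells, 25.0 ± 2.51 in cKO naive and 70.8 ± 9.47 in WT naive cells, and 0.777 ± 0.208 in cKO effector and 1.56 ± 0.507 in WT effector cells, where the groups overlapped. Lcn4 averaged 15.9 ± 1.69 in cKO memory and 46.0 ± 0.630 in WT memory cells, 23.2 ± 3.60 in cKO naive and 40.3 ± 3.03 in WT naive cells, and 8.56 ± 0.617 in cKO effector and 11.6 ± 1.25 in WT effector cells. No neighbouring groups of Lcn4 overlapped, and its effector level was well above 0 in every library.

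Cpm did not have its lowest mean in effector cells. It averaged 13.1 ± 0.851 RPM in cKO memory and 37.3 ± 3.46 in WT memory cells, 21.5 ± 1.20 in cKO naive and 37.1 ± 3.31 in WT naive cells, and 14.6 ± 1.55 in cKO effector and 22.4 ± 1.03 in WT effector cells. WT memory overlapped WT naive, WT effector overlapped cKO naive and cKO effector overlapped cKO memory. Its level was 58.4% of the WT effector mean in cKO memory cells, whereas the other members were 1.37 (Lcn4) to 24.2 times (Kcna2) their WT effector mean there. Per kilobase of gene length the order of the members changed, Dapl1 (679 bases) and Lcn4 (774 bases) being the shortest: in WT memory cells Dapl1 stood at 142 ± 7.39 RPKM, that is RPM per kilobase, Lcn4 at 59.4 ± 0.814, Slc28a2b at 43.4 ± 2.59, Slc6a19 at 7.09 ± 0.229, Cpm at 6.25 ± 0.579 and Kcna2 at 4.12 ± 0.515.

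**Figure D1:**
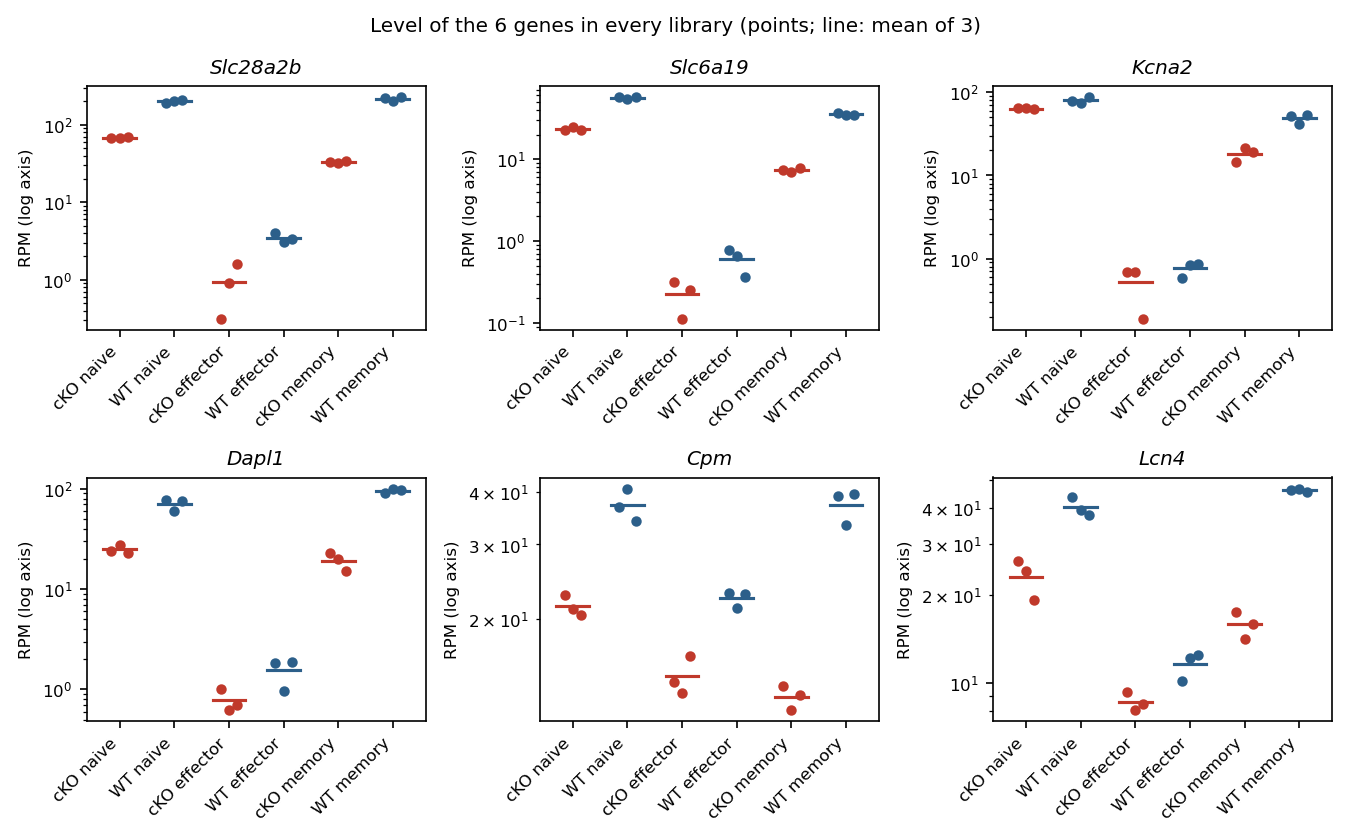
RPM of the 6 genes on a logarithmic axis in every library (points) with the mean of each group (line), by group along the x axis, cKO in red and WT in blue. The 3 cKO libraries sit below the 3 WT libraries of the same subset for every gene except in effector cells, where Kcna2 and Dapl1 overlap, and Cpm is the gene whose cKO memory libraries lie below all WT effector libraries.

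All 6 genes fell in cKO naive cells relative to WT naive cells, a contrast that the choice of the genes did not name, although the WT naive level is part of what makes a gene low in effector cells by comparison. The difference in Xist and Ddx3y given above goes along with this contrast, and its part was not tested. Of all 13885 genes tested, 11.9% were called lower in cKO naive cells. Slc28a2b had 67.2, 68.5 and 69.0 RPM in cKO naive libraries against 194, 202 and 209 in WT naive libraries, and its log2 difference was -1.68 ± 0.062 (SE, adjusted p = 1.1e-08). Dapl1 had 24.1, 27.9 and 23.1 in cKO naive libraries against 77.0, 59.9 and 75.4 in WT naive libraries, with a log2 difference of -1.61 ± 0.11 (adjusted p = 1.3e-06). The cKO mean of normalised reads was 31.2% of the WT mean for Slc28a2b and 32.6% for Dapl1, and the genotypes did not overlap in either.

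Slc6a19 had 22.7, 25.0 and 22.9 RPM in cKO naive against 56.8, 53.7 and 57.4 in WT naive libraries, a log2 difference of -1.37 ± 0.080 (adjusted p = 4.3e-07). Lcn4 had 26.2, 24.1 and 19.2 in cKO naive against 43.7, 39.3 and 37.8 in WT naive libraries, a log2 difference of -0.92 ± 0.12 (adjusted p = 1.8e-04). Cpm had 22.8, 21.2 and 20.4 in cKO naive against 36.7, 40.7 and 34.1 in WT naive libraries, a log2 difference of -0.91 ± 0.096 (adjusted p = 4.5e-05). These genes also had every cKO naive library below every WT naive library. The share of all genes with libraries so separate was not counted, and the separation is a description. Kcna2 changed least, with 64.3, 64.1 and 62.9 in cKO naive against 79.1, 73.9 and 87.8 in WT naive libraries, a log2 difference of -0.45 ± 0.077 (adjusted p = 0.0015). Its call was lost in a fit of all 18 libraries that shared 1 estimate of the spread (adjusted p = 0.248). The differences come from limma on log2(normalised reads + 1), with Benjamini-Hochberg adjustment over all genes tested, and the median over the 6 genes was -1.15 beside -0.01 over all genes. Scaling to library totals in place of the authors' size factors moved that median of all genes to 0.11, and the 6 genes stayed lower and called.

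In effector cells the choice of the genes had used the WT level, which was low by selection. Slc6a19 did not pass the filter of 10 normalised reads in 3 libraries, and among the 5 members tested, 3 were called lower in cKO, where 9.37% of all 13815 genes were. Slc28a2b fell, with 5, 16 and 25 reads in cKO effector against 62, 48 and 55 in WT effector libraries (log2 difference -2.06 ± 0.40, adjusted p = 0.0011). Cpm fell, with 14.2, 13.4 and 16.4 RPM in cKO effector against 23.1, 21.3 and 23.0 in WT effector libraries (log2 difference -0.61 ± 0.098, adjusted p = 1.7e-04). In both genes the genotypes were separate, which is again a description. Lcn4 had 9.24, 8.04 and 8.40 in cKO effector against 10.1, 12.2 and 12.4 in WT effector libraries (log2 difference -0.42 ± 0.13, adjusted p = 0.0252).

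The Lcn4 call was weak. It was lost without WT effector replicate 2 (adjusted p = 0.0826) or 3 (0.114), and without cKO effector replicate 2 (0.0863) or 3 (0.0650). The authors' deposited table gives an adjusted p of 0.0799 for the same difference, written there as WT over cKO. Dapl1 had 16, 11 and 11 reads in cKO effector against 28, 15 and 31 in WT effector libraries, which overlapped in RPM. Its log2 difference was -0.92 ± 0.37 (adjusted p = 0.0941), and it passed the threshold without WT effector replicate 2 (adjusted p = 0.0384) and in the fit of all 18 libraries (adjusted p = 0.0047). Kcna2 had 11, 12 and 3 reads in cKO effector against 9, 13 and 14 in WT effector libraries, and its log2 difference of -0.63 ± 0.50 did not pass (adjusted p = 0.425). At these read numbers, differences of the size seen in naive cells were not detectable for Kcna2.

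The genotype differences of effector and naive cells are set side by side as a description, since the WT effector libraries had been used to choose the genes, and a WT effector mean that is low by selection moves the effector minus naive difference upwards. For Lcn4 this difference was 0.50 ± 0.16 on the log2 scale, with genotype differences of -0.42 in effector and -0.92 in naive cells. It was 0.69 ± 0.29 for Dapl1 and 0.29 ± 0.14 for Cpm (SE, limma over 18 libraries). Slc28a2b (-0.38 ± 0.39), Slc6a19 (0.17 ± 0.33) and Kcna2 (-0.19 ± 0.38) had differences smaller than their standard errors. In the interaction test 1 of the 6 genes, Lcn4, passed the threshold, where 18.5% of 15694 genes did in either direction, and nothing is read from that count.

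The drop between naive and effector cells was tested in the cKO genotype, where neither group had been used to choose the genes. All 6 genes fell in cKO effector relative to cKO naive cells, in a comparison in which 34.0% of 15840 genes were called lower (edgeR quasi-likelihood test with TMM on recovered reads, Benjamini-Hochberg). The cKO naive libraries of this comparison are those with the low Xist and the Ddx3y reads given above, and the part of that difference was not tested. The log2 difference was -6.71 ± 0.20 for Kcna2 (adjusted p = 4.7e-20), -6.48 ± 0.19 for Slc6a19 (adjusted p = 7.7e-20), -5.99 ± 0.16 for Slc28a2b (adjusted p = 7.9e-21) and -4.82 ± 0.22 for Dapl1 (adjusted p = 6.4e-16). It was -1.25 ± 0.12 for Lcn4 (adjusted p = 1.9e-09) and -0.37 ± 0.10 for Cpm (adjusted p = 0.0031). The members therefore split into 4 genes with a very large drop, Lcn4 with a smaller one and Cpm with the smallest. In means of RPM the effector level was 0.818% of the naive level for Kcna2, 0.967% for Slc6a19, 1.37% for Slc28a2b, 3.10% for Dapl1, 36.9% for Lcn4 and 68.2% for Cpm in cKO cells. The shares in WT cells, which the choice had used, were 0.947%, 1.07%, 1.73%, 2.2%, 28.7% and 60.4% in the same order of genes.

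**Figure D2:**
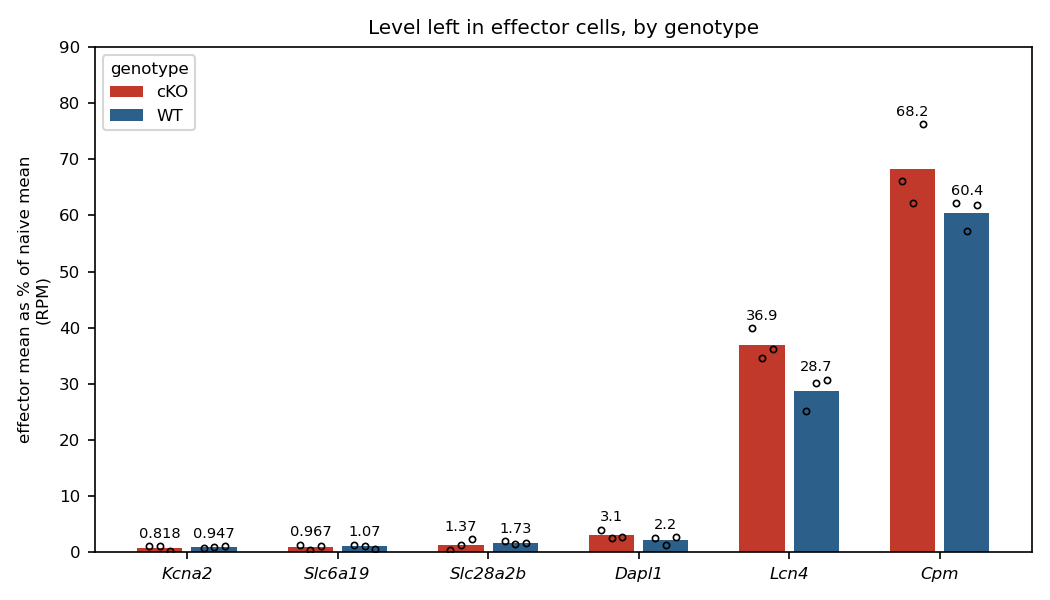
Mean RPM in effector cells as a percentage of the naive mean of the same genotype (bars, printed above), with each effector library over the same naive mean (circles), by gene, cKO in red and WT in blue. Kcna2, Slc6a19, Slc28a2b and Dapl1 keep at most 3.10% of their naive level in either genotype, Lcn4 36.9% in cKO and 28.7% in WT cells, and Cpm 68.2% in cKO and 60.4% in WT cells.

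In memory cells the genotype contrast had chosen the genes, so its values are a description. Slc28a2b had 33.2, 32.0 and 33.9 RPM in cKO memory against 219, 203 and 228 in WT memory libraries, a log2 difference of -2.78 ± 0.072. Dapl1 had 22.7, 19.9 and 15.2 in cKO memory against 90.8, 101 and 97.1 in WT memory libraries (-2.41 ± 0.13). Slc6a19 had 7.40, 7.07 and 7.83 in cKO memory against 36.8, 34.7 and 35.0 in WT memory libraries (-2.32 ± 0.10). These 3 genes ranked 6, 12 and 15 from the bottom of the 14622 genes tested in that table, of which 7.00% were called lower. Lcn4 had 17.5, 14.1 and 15.9 in cKO memory against 46.1, 46.5 and 45.3 in WT memory libraries (-1.61 ± 0.10). Cpm had 13.9, 12.2 and 13.2 in cKO memory against 39.0, 33.3 and 39.5 in WT memory libraries (-1.58 ± 0.10). Kcna2 had 14.6, 21.2 and 19.3 in cKO memory against 52.2, 42.0 and 53.0 in WT memory libraries (-1.50 ± 0.14). No gene overlapped between the genotypes, but this contrast had chosen them, and the share of all genes so separate was not counted. By size of the difference the genes ran from Slc28a2b through Dapl1, Slc6a19, Lcn4 and Cpm to Kcna2, as in naive cells. That order held near ties. Without cKO naive replicate 3, Lcn4 (-0.79) came after Cpm (-0.87) in naive cells. Without cKO memory replicate 3, Dapl1 (-2.25) came after Slc6a19 (-2.36) in memory cells.

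The memory level relative to the naive level used cKO memory cells, which had chosen the genes, and is given without a test. In cKO cells the memory mean in RPM was 28.8% of the naive mean for Kcna2, 31.6% for Slc6a19, 48.4% for Slc28a2b, 61.1% for Cpm, 68.4% for Lcn4 and 77.0% for Dapl1. In WT cells it was 61.2%, 63.4%, 107%, 100.3%, 114% and 136% in the same order of genes. The WT memory mean was at or above the WT naive mean for Slc28a2b, Cpm, Lcn4 and Dapl1, and below it for Kcna2 and Slc6a19. The cKO shares rest on the cKO naive libraries with the low Xist and the Ddx3y reads. The part of that difference was not tested.

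**Figure D3:**
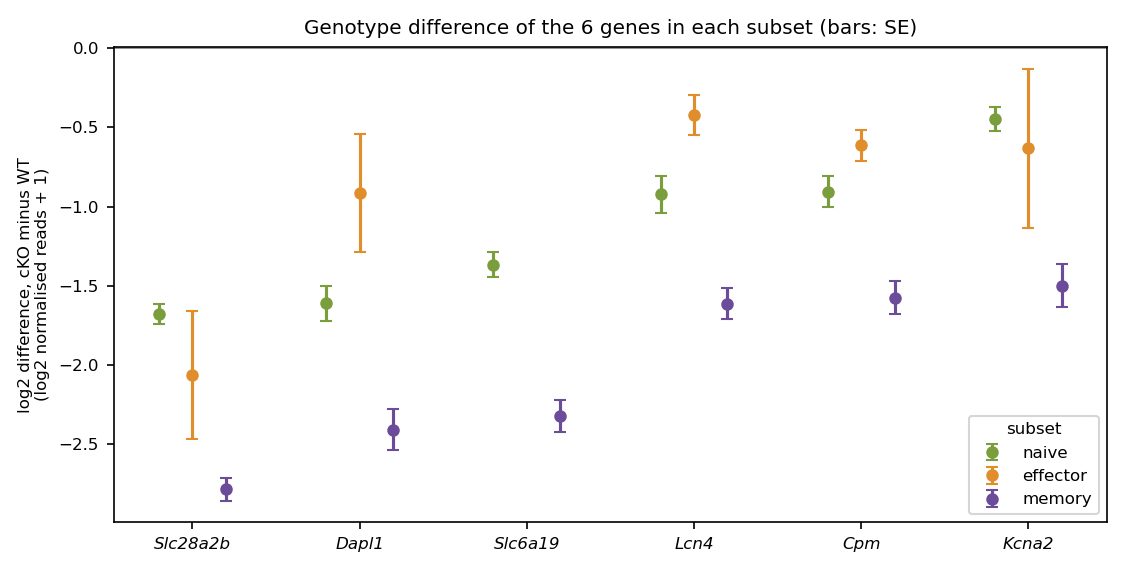
Log2 difference of cKO minus WT (y axis, log2 of normalised reads + 1) for each gene in naive (green), effector (orange) and memory cells (purple), with the standard error as bars. Every point lies below 0, memory differences are the most negative for each gene, and Slc6a19 has no effector point because it did not pass the filter on low values.

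Relatives of the members were read from lists of their families. Among nucleoside transporters, Slc28a2, the closest relative of Slc28a2b, was measured at similar levels in all groups, with 201 ± 7.04 RPM in cKO naive and 236 ± 3.20 in WT naive cells, 217 ± 6.67 in cKO effector and 202 ± 3.82 in WT effector cells, and 189 ± 12.1 in cKO memory and 224 ± 8.89 in WT memory cells. It fell slightly in cKO naive cells (log2 difference -0.35, adjusted p = 0.0011, limma) and in cKO memory cells (-0.32, adjusted p = 0.0087, limma). In effector cells it was not called (0.11, adjusted p = 0.0514, limma). The pair are similar in sequence, so the counting could move reads between them, and the values of Slc28a2b are to that extent uncertain. The equilibrative nucleoside transporter genes Slc29a1, Slc29a2 and Slc29a3 were not called in naive or effector cells.

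In the family of Slc6a19, 4 genes were tested in naive cells and 1 other was called, the glycine transporter gene Slc6a9, which had 8.77 RPM in cKO naive and 0.0796 in WT naive cells and rose (adjusted p = 1.4e-05); the WT level is too close to 0 for a fold. The taurine transporter gene Slc6a6, which had the highest level per kilobase of the family in every group, was not called in naive (0.18, adjusted p = 0.0722) or effector cells. Among T cell potassium channels, Kcna3, the gene of Kv1.3 and the main voltage-gated channel of T cells, had 32.2 RPM in cKO naive and 24.0 in WT naive cells and was not called (0.29, adjusted p = 0.137). It fell in cKO effector cells (-0.48, adjusted p = 0.0154). Of the others, the calcium-activated channel gene Kcnn4 fell in cKO naive cells (-0.33, adjusted p = 0.0318, limma). Kcnk5 rose there (adjusted p = 0.0300, limma), at 0.950 RPM in cKO naive and 0.248 in WT naive cells, too close to 0 for a fold. Kcnab2, a beta subunit gene with the highest level per kilobase of the list, was not called (0.03, adjusted p = 0.809, limma).

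Other relatives moved in both directions. Among metallocarboxypeptidases, Cpd rose in cKO naive cells (1.66, adjusted p = 0.0034, limma) and Cpa3 fell (-1.27, adjusted p = 0.0114, limma), both at under 10 RPM. Cpq rose in cKO effector cells (adjusted p = 0.0265, limma), at 0.753 RPM in cKO and 0.191 in WT cells, too close to 0 for a fold. Per kilobase, Cpm had the highest mean of the list in every group. Among lipocalins, Lcn2, a gene typical of neutrophils, rose in cKO effector cells (1.70, adjusted p = 0.0051), where Lcn4 fell. In the death-associated protein family, the kinase gene Dapk1 rose in cKO naive cells (1.80, adjusted p = 4.1e-05), and Eif4g2, which had the highest level per kilobase of the list in 5 of the 6 groups, was not called (0.07, adjusted p = 0.489). In WT memory cells Dapl1 had the highest level per kilobase of that list.

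The nearest gene on each side of a member that passed the filter in at least 1 table was read in the same fits. Bambi-ps1, a pseudogene 17415 bases from Slc28a2b on mouse chromosome 2, fell in cKO naive cells (log2 difference -1.17 ± 0.12, adjusted p = 2.8e-05) and in cKO memory cells (-1.89 ± 0.14, adjusted p = 2.1e-06). It had 9.17 ± 0.413 RPM in cKO naive and 19.1 ± 1.60 in WT naive cells, and 1.00 ± 0.241 in cKO effector and 1.79 ± 0.378 in WT effector cells, where it was not called (-0.80, adjusted p = 0.0962). A930002I21Rik lies 2661 bases from Kcna2 on chromosome 3 and fell in cKO memory cells (-1.69 ± 0.17, adjusted p = 2.9e-05) but not by the test in cKO naive cells (-0.09 ± 0.16, adjusted p = 0.726). It had 3.20 ± 0.577 in cKO memory and 9.85 ± 0.0496 in WT memory cells. These neighbours thus moved in the direction of their member.

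Most other neighbours were not called in the direction of their member. Mdm2, 1523 bases from Cpm on chromosome 10, was called in none of the 3 subsets (log2 differences 0.11, 0.14 and -0.05 in naive, effector and memory cells), and neither were Cpsf6, Pkp4, Lamtor5, Surf6 and Gm13552. Gatm, on the other side of Slc28a2b, rose in cKO effector (0.95, adjusted p = 0.0300) and cKO memory cells (1.86, adjusted p = 4.9e-05). Of the genes flanking Slc6a19 on chromosome 13, Tert rose in cKO naive cells (0.90, adjusted p = 0.0081) whereas Slc12a7 fell, like Slc6a19, in cKO naive (-0.27, adjusted p = 0.0192) and cKO memory cells (-0.53, adjusted p = 4.0e-04). The unnamed gene ENSMUSG00000120369 beside Lcn4 rose in cKO naive cells (0.73, adjusted p = 0.0032). Slc6a19 overlaps the antisense gene Slc6a19os, which reached at most 1.26 RPM, and Cpm overlaps the small RNA gene Gm25709, at most 0.251. The strand setting of the counting is not given in the sources used here, so reads of overlapping genes cannot be told apart.

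**Figure D4:**
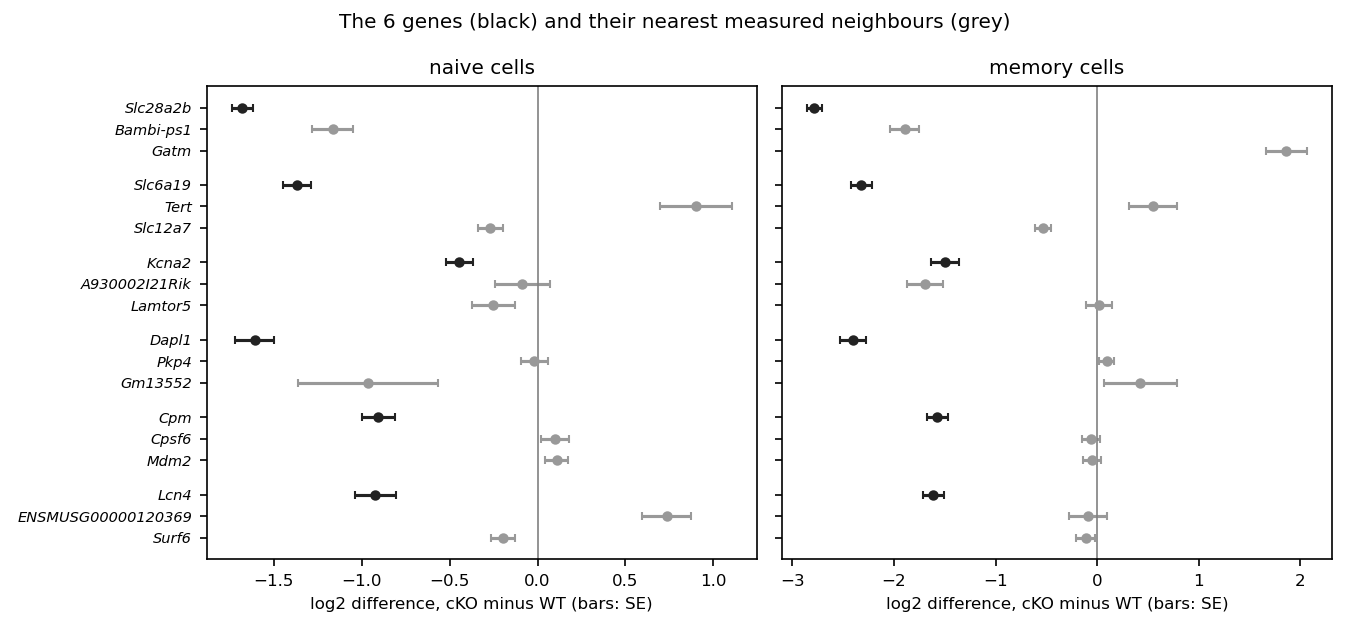
Log2 difference of cKO minus WT with its standard error (x axis) in naive (left panel) and memory cells (right panel) for the 6 genes (black) and the nearest measured gene on each side of each (grey, by row). Bambi-ps1 beside Slc28a2b lies at -1.17 in naive and -1.89 in memory cells, Slc12a7 beside Slc6a19 at -0.27 and -0.53, A930002I21Rik beside Kcna2 at -0.09 and -1.69, and Gatm beside Slc28a2b lies right of 0 in memory cells.

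A wider list of naive and central memory genes, none of them among the 6, moved in both directions. Of 26 such genes, all tested in naive cells, 11 fell, 7 rose and 8 missed the threshold, with a median log2 difference of -0.10 beside -0.01 over all 13885 genes, of which 1796 rose and 1658 fell. Scaling to library totals gave 2883 higher and 818 lower genes and moved the median of all genes by 0.12 on the log2 scale. The survival gene Bcl2 rose in cKO naive cells (0.98, adjusted p = 9.4e-07) and so did Igfbp4 (0.42, adjusted p = 5.1e-04). The interleukin receptor genes Il6ra (-0.54, adjusted p = 4.2e-05) and Il7r (-0.48, adjusted p = 1.1e-04) fell. Of 25 tested in effector cells, 8 rose, 7 fell and 10 did not pass, with a median of 0.05 beside -0.01 over all 13815 genes, of which 1485 rose and 1294 fell. There Bcl2 (1.66, adjusted p = 5.7e-14) and Il7r (0.56, adjusted p = 1.3e-07) rose, and the cytoskeletal gene Actn1 fell (-0.86, adjusted p = 3.6e-09). In memory cells 2 of 26 rose, 16 fell and 8 did not pass, with a median of -0.35 beside -0.02 over all 14622 genes, of which 1769 rose and 1024 fell. The most negative difference of this list in naive cells, that of Il6ra, was smaller in size than those of Slc28a2b, Dapl1, Slc6a19, Lcn4 and Cpm, and larger than that of Kcna2.

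The 6 genes followed one another to unequal degrees across the 18 libraries. On log2(RPM + 1), the Pearson correlation between pairs ran from 0.548 (Kcna2 with Cpm) to 0.988 (Slc28a2b with Dapl1). All pairs among Slc28a2b, Slc6a19, Kcna2 and Dapl1 were between 0.950 and 0.988. Those of Lcn4 with these 4 genes were between 0.879 and 0.952, and those of Cpm with the others were between 0.548 and 0.832. These are descriptions over libraries that share their groups. The genes whose profile was most like the mean of the 6, among 10910 candidates, were Usp28 (0.980), Ndrg3 (0.970), Kcnc1 (0.968), Trav8d-2 (0.968), Cd55os (0.964), S1pr1 (0.963), Klk8 (0.958), Npc2 (0.958), Ift80 (0.957) and Tlr1 (0.956). Usp28, a deubiquitinase gene, was also the closest to Slc28a2b (0.984) and Slc6a19 (0.996). It had 55.9 ± 4.02 RPM in cKO memory and 123 ± 11.5 in WT memory cells, 92.8 ± 0.770 in cKO naive and 141 ± 1.96 in WT naive cells, and 16.5 ± 2.63 in cKO effector and 20.5 ± 2.55 in WT effector cells.

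The gene closest to Kcna2 was St8sia1 (0.997), a sialyltransferase gene, followed by Tmie (0.995) and Scml4 (0.995), and Adam6b (0.986) and Scml4 (0.985) came after Usp28 for Slc6a19. For Slc28a2b, Ift80 (0.981) and Tlr1 (0.980) followed. Tlr1, a Toll-like receptor gene, was closest to Dapl1 (0.990), before Fam241a (0.981) and Rgmb (0.976), with 57.1 ± 5.72 RPM in cKO memory and 114 ± 7.84 in WT memory cells. Lcn4 was closest to Ndrg3 (0.958), Smc4 (0.955) and Cd55 (0.952), the gene of a complement regulator. Cpm had the weakest matches, to Trav16n (0.907), Rhoh (0.902) and Rcn3 (0.898). Rhoh, the gene of a GTPase of T cell receptor signalling, was lower in cKO than in WT cells of every subset. It had 45.1 ± 0.308 RPM in cKO effector and 109 ± 1.78 in WT effector cells. In naive cells it had 92.8 ± 3.12 in cKO and 204 ± 11.9 in WT, and in memory cells 81.5 ± 9.67 in cKO and 191 ± 8.02 in WT. Cd55os is named as an antisense gene of Cd55, and without a known strand setting reads of the pair cannot be told apart.

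RNA on marker lists of other cell types moved with genotype beside these differences. Of 8 such lists, 4 had summed levels wholly higher in cKO than in WT libraries in naive cells, 6 in effector cells and 6 in memory cells. In effector cells the NK cell list summed to 4907 to 5491 RPM in cKO and 4389 to 4722 in WT libraries. The CD8 T cell list summed there to 5132 to 5315 and 5750 to 5944. Whether CD8+ T cells make part of the listed RNAs themselves was not tested, so these sums do not measure other cells. The 10 B cell markers summed to 1733 to 2049 RPM in cKO memory against 851 to 932 in WT memory libraries, and the 8 neutrophil markers to 217 to 295 against 18.5 to 22.0. The 10 macrophage and dendritic cell markers summed to 289 to 329 in cKO memory against 59.0 to 65.9 in WT memory libraries, and the gamma-delta T cell markers, of which 7 of 10 were listed, to 129 to 163 against 20.8 to 21.9. In naive cells the gamma-delta markers summed to 50.6 to 59.6 in cKO against 9.61 to 11.3 in WT libraries, whereas neutrophil markers stayed at or under 1.19 in every library. The 6 NK cell markers summed to 151 to 177 in cKO memory against 38.9 to 44.8 in WT memory libraries and the 7 erythroid markers to 50.6 to 67.6 against 19.6 to 29.9. The summed CD4 T cell markers were lower, at 152 to 169 in cKO memory against 253 to 270 in WT memory libraries. Of these 6 genes, however, 3 were called higher and 1 lower in cKO memory cells. The summed stromal and endothelial markers were lower too, at 110 to 118 against 160 to 170. Of the 4 of them tested, 2 were called higher and 1 lower. Of the neutrophil markers Ly6g was at 0 in WT memory cells, and no B cell, NK cell, macrophage or erythroid marker was at 0 in either memory group. The summed CD8 T cell markers in cKO cells were 0.840 times the WT mean in memory and 0.898 times in naive cells, in RPM. That list is not specific to CD8+ cells, so it does not measure their share. The cKO means of the 6 genes were 0.145 to 0.356 times the WT means in memory and 0.312 to 0.732 times in naive cells. Those ratios are in normalised reads, another scale. The part of other cells in the differences of the 6 genes was not tested.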

How the data were processed

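RNA was measured in 18 libraries of 6 groups. The submitters' processing notes name build GRCm39 and DESeq2 1.42.0, featureCounts 2.0.6, fastp and HISAT2 2.2.1; the order, settings, annotation and strand are not given in the sources used here. The authors deposited 1 table per subset, whose signal values are read counts divided by a size factor per library (normalised reads), with a log2 fold change of WT over cKO and an adjusted p-value per gene. Dividing by the worth of 1 read gave whole reads for 100% of values (largest deviation 4.5e-06 reads, tolerance 1e-05). For 2 naive libraries, WT replicate 2 and cKO replicate 3, the size factor is so close to 1 that the automated unit check does not judge the recovery; their reads were used all the same, and an alternative without them is reported. Recovered reads were scaled to the library total (RPM) to compare subsets. The 6 genes and all gene lists were chosen with earlier results of these data known; of 192 list entries, 37 matched no gene by symbol. Genotype differences come from limma 3.58.1 with trend, run in R 4.3.3 on log2-transformed normalised reads (pseudocount 1), after a filter that kept genes reaching 10 normalised reads in 3 or more libraries. The interaction used all 18 libraries and the genes of all 3 tables (20825 before the filter), and cKO effector against cKO naive used edgeR 4.0.16. Calls are adjusted p under 0.05. Named genes were every member, Hspa9, relatives called in naive or effector cells or most abundant in their list, nearest neighbours, the 3 and 10 most alike profiles, and the 4 naive and central memory genes with the smallest adjusted p in each comparison. The tests were also run on simulated counts with the same spread for all genes, changing only genes above a minimum mean read number. That run does not cover genes with few reads. Alternatives are other scaling, pseudocounts, filters, tools and left-out libraries.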

Additional observations from a re-analysis of the deposited data

Results flagged for a closer look

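Lcn4 was singled out because its genotype difference was not the same in effector and naive cells by the interaction test, with a difference of 0.50 on the log2 scale (adjusted p = 0.0344, limma over 18 libraries). The genotype difference was -0.42 in effector and -0.92 in naive cells, and all 3 cKO libraries lay below all 3 WT libraries in both subsets. The WT effector libraries in this difference had been used to choose the genes, and a WT effector mean low by selection moves it upwards, so its p-value is no independent support. The adjusted p ran from 0.0176 to 0.102 over the alternatives, and the sign was kept in all 17 of them. The call ended with the number as a replicate block (adjusted p = 0.0579), without WT naive replicate 1 (0.0886), without cKO naive replicate 3 (0.09998, where the difference was 0.37), without WT effector replicate 1 (0.102) and without cKO effector replicate 1 (0.0841) or 3 (0.0523). The same cKO naive libraries also differ from WT naive libraries in sex-linked RNA, whose part in this difference was not tested.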

How the results depend on the processing

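The direction of each of the 6 genes was kept under every alternative run in naive and memory cells, that of the 5 genes tested in effector cells likewise, and that of all 6 for cKO effector against cKO naive cells, where they remained called. The calls between genotypes in naive and effector cells that changed with a setting are given beside the genes. The count of genes called among all genes was 3454 in naive cells and 2127 to 3301 with single libraries left out, lowest without cKO naive replicate 1 (2138) or 2 (2127). In effector cells it was 2779, 2082 to 2525 with single libraries left out, and 1457 in the fit of all 18 libraries. In memory cells it was 2793 and 1830 to 3049 with single libraries left out, lowest without WT memory replicate 3 (1830) or cKO memory replicate 3 (1836). The cause was not tested. Scaling to library totals gave 2883 higher and 818 lower calls in naive cells, in place of 1796 and 1658, and 2259 and 639 in memory cells, in place of 1769 and 1024. For the interaction, Kcna2 changed sign with a pseudocount of 5 (0.027), and the values with single libraries left out ran from -0.86 to 0.20 for Slc28a2b, from -0.12 to 0.49 for Slc6a19 and from -0.46 to 0.34 for Kcna2. In the interaction, Dapl1 crossed the threshold only with a pseudocount of 5 (0.85), and Slc28a2b only without cKO effector replicate 3 (-0.86). Neither was called in the main fit. The WT effector libraries of this interaction had been used to choose the genes, so nothing is read from these crossings. Samples with the same replicate number showed little shared deviation (correlations -0.143 to 0.0665). With 3 libraries per group this check can miss a pairing. With the number as a replicate block the calls numbered 2469 (naive), 2687 (effector) and 2226 (memory cells). They numbered 2140 for the interaction, where Lcn4 did not pass (adjusted p = 0.0579, limma), and 10637 for cKO effector against cKO naive cells. Leaving out the 2 naive libraries of size factor near 1, an alternative chosen after seeing the data, kept all 6 genes lower and called in cKO effector cells. TMM scaling kept the order of group means for 6 of 6 genes, and 8 of the 10 most alike genes stayed with a pseudocount of 0.1. Genes with few effector reads, Slc6a19 and Kcna2 first, are limited by depth.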
